A study of Mus musculus with 6 samples.

Results

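The genes described here are 32 enzymes, regulators and transporters of sterol and fatty acid synthesis, followed on 6 microarrays of mouse leukaemia cells. The list of names was chosen with earlier results of these data known. Of the 32 genes, 29 had a probe set with a single gene symbol, out of 22180 genes in the table. Idi1 shared its probe set with the predicted gene Gm13502, and Acat2 and Nr1h2 were not analysed here. For 3 arrays the MLL-AF9 leukaemia cells came from Evi1 Tg mice, which carry an Evi1 transgene, and for the other 3 from WT mice. Both groups were C57BL/6J, untreated, and carried MLL-AF9, a fusion oncogene of acute myeloid leukaemia. Each array read total RNA of 10000 GFP-positive cells taken by a cell sorter as whole, unfractionated AML cells. The labels name neither the promoter behind the transgene nor the animal of origin of each sample, so that p-values cover the spread between samples, which may be technical.

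Cells make cholesterol from acetyl-CoA through the mevalonate pathway, which runs to farnesyl diphosphate, and then through squalene and the closing and trimming of the sterol rings. The transcription factors SREBP1 and SREBP2, products of Srebf1 and Srebf2, switch on these enzymes and those of fatty acid synthesis when sterols are scarce. Scap escorts the SREBP proteins out of the endoplasmic reticulum, and the Insig proteins hold Scap back when sterols are plentiful. The liver X receptors, encoded by Nr1h2 and Nr1h3, sense oxysterols and switch on genes of cholesterol export such as Abca1 and Abcg1.

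Stretches of promoter are shown for 6 of the genes, the first for its sterol regulatory element. The next 4 were picked from the 7 sterol ring enzymes that were highest in the same array, WT 3. Of the rest of those enzymes, Fdft1 and Sqle had no matched promoter, and Ebp had one that is not shown. Abca1 is shown because its difference between the groups was the largest in size. Each stretch runs 5′ to 3′ over the 200 bases before the annotated start, from RefSeq on GRCm38.p6. Capitals mark TCACNCCAC, a form of the sterol regulatory element, CCAAT, the box of the factor NF-Y that works with SREBP, and the E-box CACGTG, each on either strand, so that ATTGG is CCAAT read on the other strand.
Hmgcs1 (chr13:119690151-119690350, plus strand): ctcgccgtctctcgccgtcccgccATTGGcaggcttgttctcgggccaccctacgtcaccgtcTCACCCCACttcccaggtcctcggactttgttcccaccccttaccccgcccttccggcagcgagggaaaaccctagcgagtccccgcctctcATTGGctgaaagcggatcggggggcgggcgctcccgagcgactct
Cyp51 (chr5:4104698-4104897, minus strand): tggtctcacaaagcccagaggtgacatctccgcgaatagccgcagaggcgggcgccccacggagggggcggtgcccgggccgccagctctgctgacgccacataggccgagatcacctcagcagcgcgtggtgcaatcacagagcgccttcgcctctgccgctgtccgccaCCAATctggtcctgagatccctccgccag
Msmo1 (chr8:64733579-64733778, minus strand): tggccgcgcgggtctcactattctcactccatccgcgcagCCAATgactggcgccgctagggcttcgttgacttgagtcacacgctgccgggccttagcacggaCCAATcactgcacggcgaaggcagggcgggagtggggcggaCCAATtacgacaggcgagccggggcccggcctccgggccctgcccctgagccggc
Hsd17b7 (chr1:169969206-169969405, minus strand): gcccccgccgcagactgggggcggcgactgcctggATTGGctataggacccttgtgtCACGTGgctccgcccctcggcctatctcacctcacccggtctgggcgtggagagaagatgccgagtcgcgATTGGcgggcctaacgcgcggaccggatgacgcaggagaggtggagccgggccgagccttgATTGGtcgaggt
Sc5d (chr9:42264301-42264500, minus strand): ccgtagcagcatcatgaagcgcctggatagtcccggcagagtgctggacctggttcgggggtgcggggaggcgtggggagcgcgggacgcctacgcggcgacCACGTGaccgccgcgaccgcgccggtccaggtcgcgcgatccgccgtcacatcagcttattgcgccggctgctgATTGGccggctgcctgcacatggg
Abca1 (chr4:53159896-53160095, minus strand): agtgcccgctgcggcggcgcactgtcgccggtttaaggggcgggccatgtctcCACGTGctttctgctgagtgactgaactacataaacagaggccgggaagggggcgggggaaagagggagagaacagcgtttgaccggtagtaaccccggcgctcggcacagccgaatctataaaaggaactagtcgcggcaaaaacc
Hmgcs1 holds 1 sterol regulatory element of this form between 2 CCAAT boxes, while Msmo1 and Hsd17b7 hold 3 CCAAT boxes each and Abca1 none.

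RefSeq promoters, 300 bases from 250 before to 50 after a start, were matched for 27 of the 32 genes, and not for Fdps, Fdft1, Sqle, Abcg1 and Stard4. CCAAT stood in 21 of the 27, or 77.8%, against 41.1% of all 27025 genes with a promoter. It was present in all 9 matched sterol ring genes, in 5 of 6 mevalonate genes and in 4 of 5 genes of SREBP control, but in 1 of 4 genes of the LXR and transport group. The E-box CACGTG stood in 6 of 27 (22.2%), against 8.09% of all genes, and TCACNCCAC in 1 of 27 against 1.44%. The strict DR4 form of the LXR element, a direct repeat of the half-site with 4 bases between, stood in 0 of the 27 and in 4 of the 27025 genes. So rare a form cannot tell the genes apart, and looser forms of the element were not searched, in Abca1 or elsewhere. The matches describe letters only, and a promoter without one is not shown to lack the factor.

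Median intensities of the arrays lay between 51.6 and 55.4, and any 2 arrays correlated at 0.972 or above across genes, which are not independent replicates. The depth of an array is limited by background, set here as an intensity of 75.7, below which 90% of 64 genes silent in blood lay. Mecom, the gene that encodes Evi1, had a mean intensity of 38.6 in Evi1 Tg and 36.9 in WT (log2 difference 0.064, adjusted p = 0.890 by limma), so the labels could not be checked by it. By their mean over all arrays 10 of 10 myeloid leukaemia markers were above background, although Cd34 was so only through Evi1 Tg (573, 812 and 86.7, against 52.1, 71.5 and 56.3 in WT). In the other lists 0 of 8 lymphocyte, 1 of 7 erythroid (Tfrc), 3 of 12 macrophage (Cd68, Adgre1 and Csf1r) and 7 of 10 neutrophil markers were above background by that mean. The summed intensity of the neutrophil list was 2829, 1572 and 6856 in Evi1 Tg 1, 2 and 3, against 3067, 8984 and 2017 in WT 1, 2 and 3. In bulk RNA, fewer cells of a type and less RNA per cell cannot be told apart.

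Sterol and fatty acid synthesis genes showed small differences between Evi1 Tg and WT, with Abca1 the exception in size. Of the 29 genes, 27 were above background, as 44.4% of all genes were, with Acacb and, narrowly, Nr1h3 below it. A log2 difference above 0 was seen in 13 of the 29 and one below 0 in 16, against 53.5% and 46.5% of all genes, with a median of -0.059, where the median over all genes was 0.012. With limma and Benjamini-Hochberg adjustment over all genes, 0 of 29 were higher and 0 were lower in Evi1 Tg, where 0.00902% and 0.104% of all genes were. At an unadjusted p under 0.05 there was 1 higher gene, Pmvk, and 1 lower gene, Abca1, against a background of 4.5% and 5.8% of all genes. The 3 Evi1 Tg arrays lay wholly above the WT arrays for 1 gene, Pmvk, and wholly below for 2, Abca1 and Msmo1, while 7.08% and 7.47% of all genes, and 8.18% and 11.1% of those above background, separated in these ways. These counts are no larger than the background. The 95% intervals of 28 of the 29 differences lay within a 2-fold change in either direction, and those of 17 within a 1.5-fold change. The smallest two-sided p that exact permutation of 6 arrays in groups of 3 allows is 0.1.

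**Figure D1:**
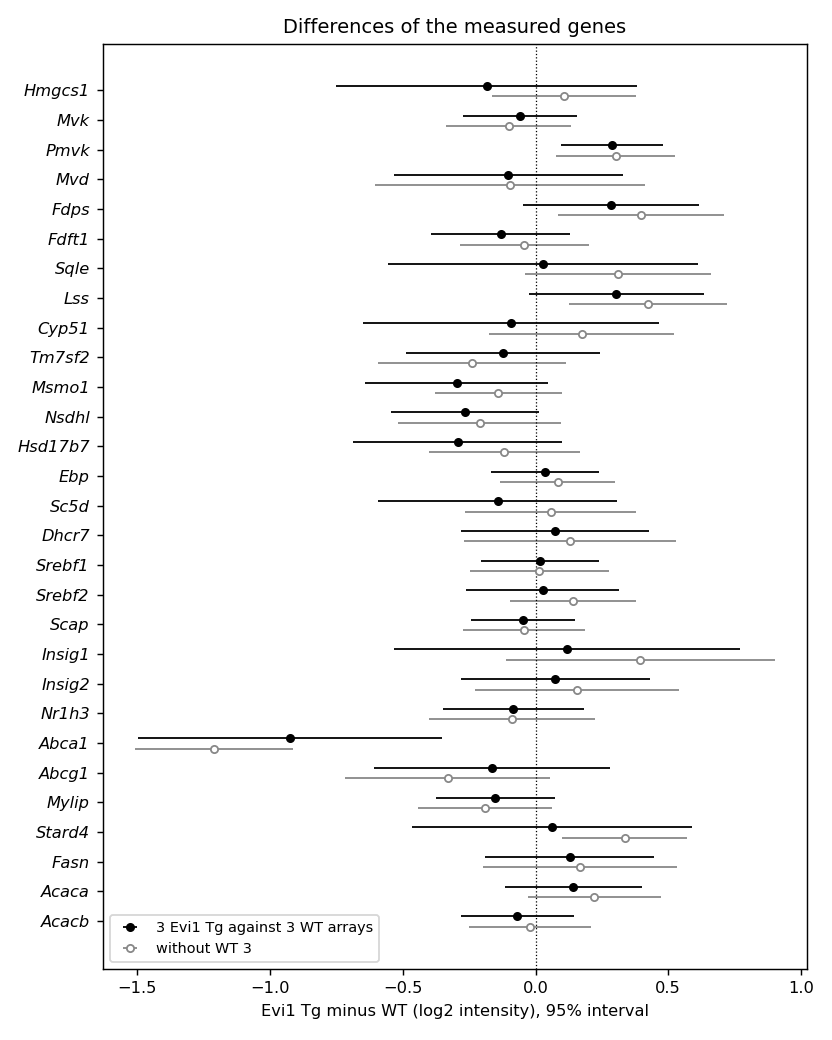
Difference in log2 intensity, Evi1 Tg minus WT, with 95% intervals, for the 29 measured genes; filled points use all 6 arrays and open points leave out WT 3. Abca1 is the gene whose interval reaches beyond a 2-fold change in both settings, and the open points of Sqle, Insig1 and Stard4 lie to the right of their filled ones.

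Regulators of the pathway differed little. Srebf2, the main activator of cholesterol synthesis genes, had intensities of 551, 541 and 574 in Evi1 Tg, against 470, 540 and 638 in WT, so that the log2 difference was 0.027, taken as Evi1 Tg minus WT throughout (SE 0.121, n = 3 each, adjusted p = 0.972 by limma). The Evi1 Tg arrays lay inside the spread of the WT arrays. Srebf1, which favours fatty acid genes, had 200.2, 218 and 183 in Evi1 Tg, against 206, 189 and 197 in WT (difference 0.016, 95% interval -0.21 to 0.24). Scap had 474, 457 and 438 in Evi1 Tg, against 444, 496 and 473 in WT (difference -0.046, 95% interval -0.24 to 0.15), and its other probe set, with a mean of 53.8, lay below background. For both genes the interval lay within a 1.5-fold change in either direction, but it covers the spread between samples, which may be technical.

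Insig1 and Insig2 encode the anchors of Scap, and Insig1 is itself a target of SREBP. Insig1 had 233, 382 and 276 in Evi1 Tg, against 202, 242 and 391 in WT, so that the difference was 0.12 (SE 0.276, adjusted p = 0.940 by limma). Evi1 Tg 2 and WT 3 were both high, so the groups overlapped and the interval was wide, from -0.53 to 0.77. Insig2, the form less dependent on SREBP, had 113, 102 and 136 in Evi1 Tg, against 92.4, 117 and 123 in WT (difference 0.075). As a group the 5 genes of SREBP control had a median difference of 0.027, with 4 above 0 and 1 below. Without WT 1 the balance turned to 1 above and 4 below, with a median of -0.081, and without WT 3 the median was 0.14.

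Mevalonate enzymes included the 1 gene with an unadjusted p under 0.05 on the higher side. Pmvk, which phosphorylates mevalonate phosphate, had 189, 183 and 205 in Evi1 Tg, against 153, 159 and 160.1 in WT. All Evi1 Tg arrays stood above all WT arrays. The log2 difference was 0.29 (SE 0.0817, n = 3 each, adjusted p = 0.278 by limma, exact permutation p = 0.1), and it lay between 0.24 and 0.33 over 14 alternative settings. Fdps, which makes farnesyl diphosphate, had 455, 504 and 577 in Evi1 Tg, against 360, 416 and 488 in WT, with overlapping groups (difference 0.28, SE 0.141, limma adjusted p = 0.562). Hmgcs1, the cytosolic HMG-CoA synthase at the entry to the pathway, had 307, 333 and 317 in Evi1 Tg, against 268, 327 and 542 in WT. Its Evi1 Tg arrays were close together, and WT 3 alone stood high (difference -0.18, SE 0.240). Mevalonate kinase, Mvk, had 136, 136 and 125 in Evi1 Tg, against 135, 150 and 130 in WT (difference -0.059). The decarboxylase Mvd had 207, 132 and 161 in Evi1 Tg, against 152, 202 and 178 in WT (difference -0.10), with the Evi1 Tg arrays spread more widely than the WT arrays. The probe set shared by Idi1 and Gm13502, where Idi1 encodes the isomerase of the pathway, had 254, 387 and 373 in Evi1 Tg, against 275, 263 and 511 in WT, and its signal cannot be assigned to 1 gene.

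Sterol ring enzymes, from squalene to cholesterol, had a median difference of -0.12, with 4 of 11 genes above 0 and 7 below, and without WT 3 the median turned to 0.057, with 6 above and 5 below. Msmo1, a methyl oxidase, had 170, 183 and 197 in Evi1 Tg, against 197, 207 and 280.1 in WT. The highest Evi1 Tg value fell just short of the lowest WT value, so the groups separated by a narrow gap (difference -0.30, SE 0.147, limma adjusted p = 0.558, exact permutation p = 0.1). Hsd17b7, which acts with Nsdhl on the same carbon of the ring, had 146, 165 and 183 in Evi1 Tg, against 173, 183 and 256 in WT (difference -0.29, SE 0.167). Nsdhl had 258, 263 and 284 in Evi1 Tg, against 273, 352 and 348 in WT (difference -0.26, SE 0.118, limma adjusted p = 0.512). The groups overlapped in both genes, since WT 1 and WT 2 of Hsd17b7 and WT 1 of Nsdhl fell among the Evi1 Tg values.

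Other steps of the ring ran the opposite way or showed no separation. Lss, which closes the rings as lanosterol synthase, had 163, 207 and 175 in Evi1 Tg, against 131, 138 and 172 in WT (difference 0.30, SE 0.139, limma adjusted p = 0.523). Only WT 3 reached into the Evi1 Tg range. Sqle, the squalene epoxidase, had 152, 195 and 199 in Evi1 Tg, against 156, 136 and 262 in WT (difference 0.030). Cyp51, the lanosterol demethylase, had 126, 160.2 and 144 in Evi1 Tg, against 141, 113 and 220 in WT (difference -0.092). In Sqle and Cyp51 the lowest and the highest of the 6 arrays were both WT arrays. Sc5d, a desaturase, had 273, 305 and 364 in Evi1 Tg, against 294, 306 and 454 in WT (difference -0.14). Dhcr7, the reductase of the last step, had 424, 574 and 617 in Evi1 Tg, against 485, 485 and 547 in WT (difference 0.073), and here the Evi1 Tg arrays held both extremes. The squalene synthase Fdft1 had 254, 231 and 260 in Evi1 Tg, against 270, 241 and 308 in WT (difference -0.13). Tm7sf2, a sterol reductase, had 217, 165 and 167 in Evi1 Tg, against 199, 229 and 168 in WT (difference -0.12), and it differed from most of the group in having its lowest WT value in WT 3. The isomerase Ebp had 374, 347 and 374 in Evi1 Tg, against 353, 336 and 381 in WT (difference 0.035, 95% interval -0.17 to 0.24), the tightest interval of the group.

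**Figure D2:**
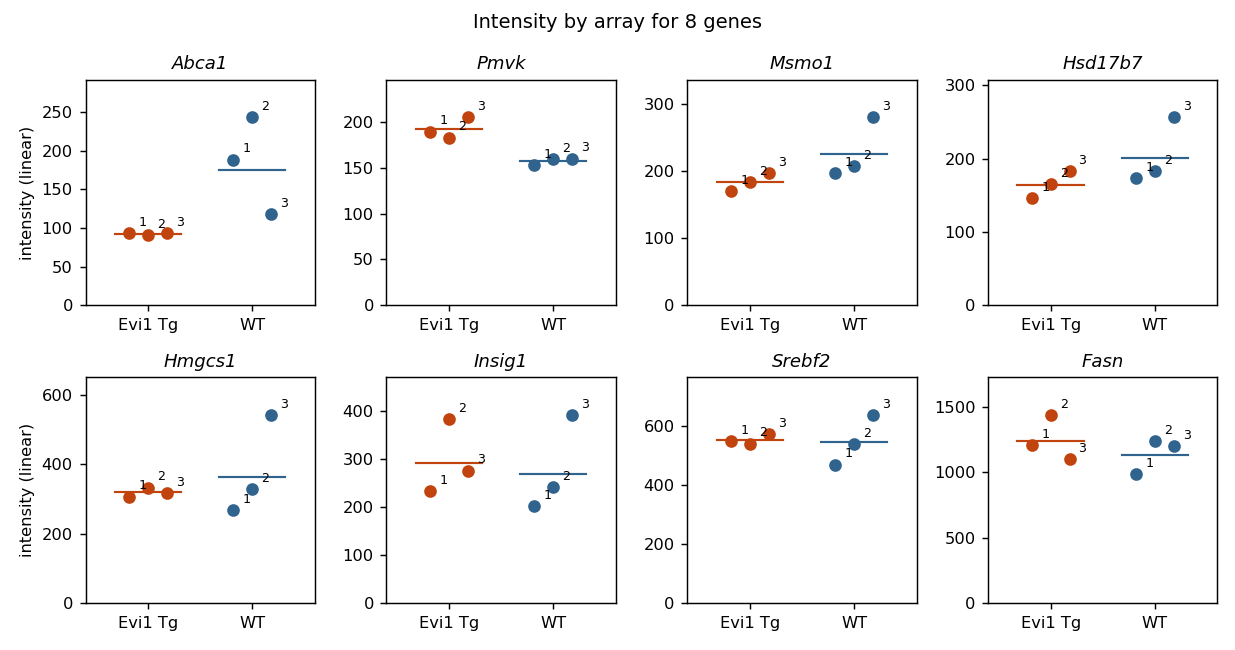
Intensity on a linear scale by array for 8 genes, Evi1 Tg left and WT right; each point is 1 array with its replicate number and each line the mean of the log2 values of a group. Abca1 is at 90.6 to 93.8 in all Evi1 Tg arrays and 118 to 243 in WT, and WT 3 is the highest array for Msmo1, Hsd17b7, Hmgcs1, Insig1 and Srebf2.

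Cholesterol export held the largest difference. Abca1, the transporter that loads cholesterol onto lipid-poor apolipoprotein, had 93.8, 90.6 and 93.2 in Evi1 Tg, against 189, 243 and 118 in WT. The Evi1 Tg arrays were nearly equal, and each WT array stood above them. Its mean was 92.5 in Evi1 Tg and 175 in WT, a log2 difference of -0.92 (SE 0.243, n = 3 per group, 95% interval -1.50 to -0.35, limma adjusted p = 0.252, exact permutation p = 0.1). Without WT 3, the lowest of the WT arrays, the difference was -1.21 (SE 0.124) and passed the test (limma adjusted p = 0.0188, against 0.0188 to 0.678 over 14 alternatives), in a setting where 0.78% of all genes were called lower and 1.73% higher. The Evi1 Tg mean lies close to the background of 75.7, which bounds the size of the difference.

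Markers of macrophages, cells rich in Abca1, were set beside it. The summed intensity of the 12 macrophage markers was 4915, 4985 and 4810 in Evi1 Tg, against 5043, 4747 and 3614 in WT, so the ranges overlapped. Adgre1, which encodes F4/80, had 477, 411 and 659 in Evi1 Tg, against 1374, 1016 and 969 in WT (difference -1.13, SE 0.205, limma adjusted p = 0.139), and Csf1r had 444, 585 and 563 in Evi1 Tg, against 803, 596 and 579 in WT (difference -0.31, SE 0.164). Cd68 made up most of the sum and ran the opposite way, with 3480, 3463 and 3117 in Evi1 Tg, against 2359, 2653 and 1576 in WT (difference 0.64, SE 0.190). C1qa, C1qb, C1qc, Vsig4 and Timd4 were below background. The part of these markers in the Abca1 values was not tested.

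Other genes of the LXR and transport group did not share the size of the Abca1 difference. Abcg1, which exports cholesterol to mature lipoprotein, had 550, 419 and 499 in Evi1 Tg, against 536, 698 and 432 in WT (difference -0.16, SE 0.188, limma adjusted p = 0.859), and its WT arrays stood in the same order as those of Abca1. Mylip, a ubiquitin ligase that degrades lipoprotein receptors and a target of the liver X receptors, had 350.1, 301 and 307 in Evi1 Tg, against 377, 350 and 336 in WT (difference -0.15, SE 0.0952). Nr1h3, the liver X receptor of macrophages and liver, had 81.4, 63.6 and 76.9 in Evi1 Tg, against 82.2, 74.4 and 77.3 in WT (difference -0.083), all around background. Stard4, which moves sterol between membranes and answers to SREBP, had 149, 171 and 161 in Evi1 Tg, against 130, 123 and 224 in WT. Its Evi1 Tg values lay between the low pair of WT arrays and WT 3 (difference 0.062, SE 0.223).

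Fatty acid synthesis was represented by 3 enzymes. Fasn, the synthase itself, had 1211, 1438 and 1100.2 in Evi1 Tg, against 987, 1237 and 1200.1 in WT (difference 0.13, SE 0.135, 95% interval -0.19 to 0.45, limma adjusted p = 0.837). Acaca, the cytosolic acetyl-CoA carboxylase that supplies it, had 380.3, 438 and 389 in Evi1 Tg, against 361, 328 and 407 in WT (difference 0.14, SE 0.109). In both genes the groups overlapped. Acacb, the carboxylase isoform that restrains fatty acid oxidation, was below background in every array, between 45.9 and 50.8 in Evi1 Tg and between 46.9 and 54.2 in WT.

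**Figure D3:**
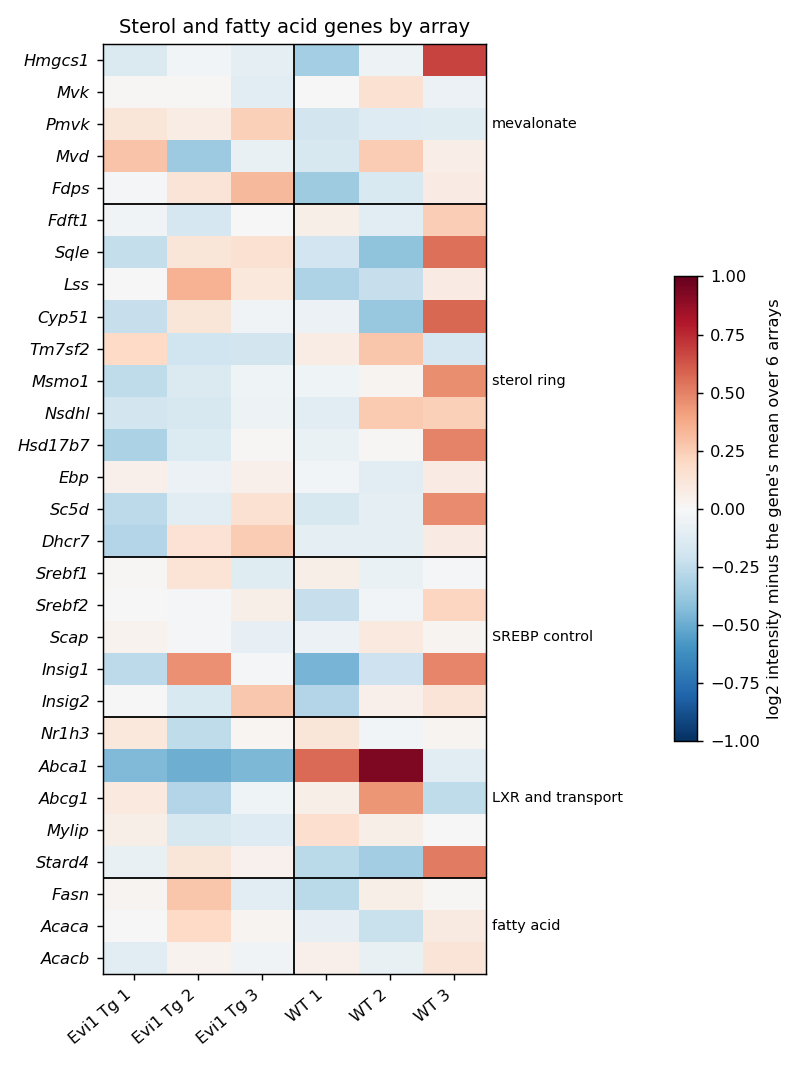
Log2 intensity of each gene minus its mean over the 6 arrays, for 29 genes in rows and 6 arrays in columns, Evi1 Tg left of WT; red is above and blue below the gene's mean, on a scale from -1 to 1. WT 3 is the highest array for 12 of the 29 genes and the lowest for 0.

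The WT arrays differed among themselves, and WT 3 stood apart. The range over 3 arrays was wider in WT than in Evi1 Tg for 22 of 29 genes, or 75.9%, against 67.0% of the 9847 genes above background. WT 3 was the highest of the 6 arrays for 12 genes, Hmgcs1, Fdft1, Sqle, Cyp51, Msmo1, Hsd17b7, Ebp, Sc5d, Srebf2, Insig1, Stard4 and Acacb, which is 41.4% of the genes, against 32.1% of genes above background and 19.3% of all genes. It was the lowest array for 0 of the 29, against 13.0% of genes above background. The sterol synthesis enzymes had a median of 0.30 for WT 3 minus the mean of WT 1 and WT 2 on the log2 scale, with 14 of 16 above 0, where genes above background had a median of 0.11, with 6047 of 9847 above 0. The remaining 13 genes were close to that background, with a median of 0.12 and 8 above 0.

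The genes furthest up in WT 3 were Hmgcs1 (0.87 above the mean of WT 1 and WT 2 on the log2 scale), Sqle (0.85), Insig1 (0.82), Stard4 (0.82), Cyp51 (0.80), Sc5d (0.60), Hsd17b7 (0.53) and Msmo1 (0.47). All are known targets of SREBP or enzymes of sterol synthesis, but so are most of the 29 genes, so the list itself favours this. Among the other enzymes of sterol synthesis, Lss (0.35), Fdps (0.34) and Fdft1 (0.27) rose by less. Tm7sf2 (-0.35), Mvk (-0.13), Mvd (0.021) and Pmvk (0.037) did not follow. Nsdhl (0.16), Ebp (0.15) and Dhcr7 (0.17) were close to the median of 0.11 for genes above background. The exporters ran the opposite way, with Abca1 at -0.87 and Abcg1 at -0.50 on the same measure. These genes were picked after their values were seen, and 1 array allows no test.

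WT 3 also stood apart in cell division genes. Across 19 such genes the median deviation, taken per gene from the mean of all arrays, was 0.25, 0.25 and 0.42 in Evi1 Tg, against -0.49, -0.67 and 0.28 in WT 1, 2 and 3. For the sterol ring enzymes it was -0.23, -0.10 and 0.012 in Evi1 Tg, against -0.069, -0.099 and 0.24 in WT. WT 3 was thus level with Evi1 Tg in cell division genes and above all Evi1 Tg arrays in the sterol ring enzymes. For mevalonate enzymes the deviations were 0.015, 0.014 and -0.076 in Evi1 Tg, against -0.19, -0.055 and 0.065 in WT, and for LXR and transport genes 0.061, -0.25 and -0.044 in Evi1 Tg, against 0.12, 0.060 and 0.0016 in WT. The part of cell division in the values of WT 3 was not tested.

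**Figure D4:**
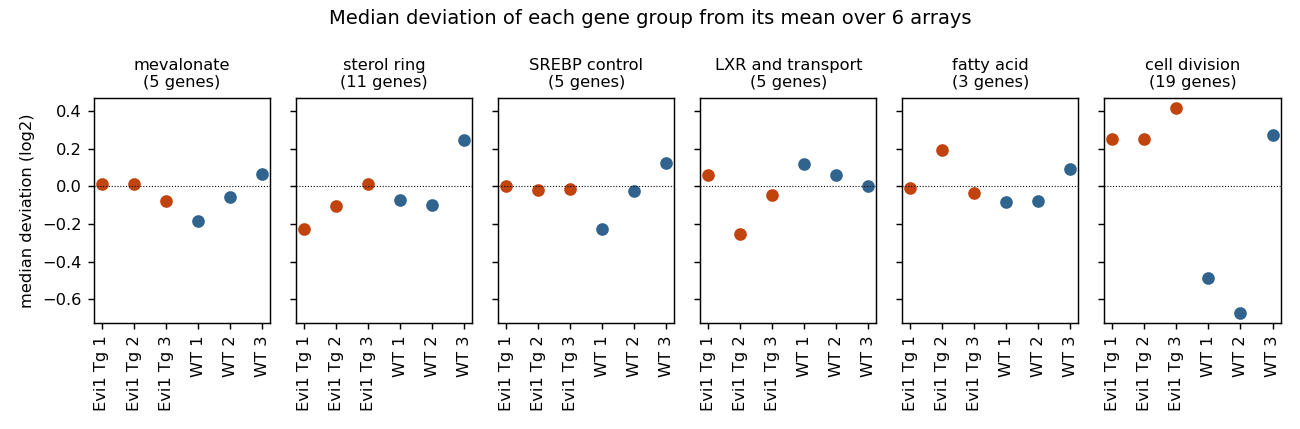
Median deviation from the mean over 6 arrays, on the log2 scale, of each group of genes and of 19 cell division genes, by array, with Evi1 Tg in orange left of WT in blue. WT 3 stands at 0.24 for the sterol ring enzymes, above the other 5 arrays, and at 0.28 for cell division, far above WT 1 and WT 2.

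Leaving WT 3 out turned the balance of the genes. Against WT 1 and WT 2 alone, 16 of 29 genes lay above 0 and 13 below. Their median was 0.057, where the median over all genes was 0.005. By limma with Benjamini-Hochberg adjustment 0 were higher and 1, Abca1, was lower, where 1.73% and 0.78% of all genes were. At an unadjusted p under 0.05 there were 4 higher genes, Pmvk, Fdps, Lss and Stard4, where 9.42% of all genes were higher, and 1 lower, where 7.05% were. The differences were 0.40 for Fdps, 0.42 for Lss and 0.34 for Stard4, and none of them passed the adjusted test. For Hmgcs1, Cyp51 and Sc5d the sign turned, to 0.11, 0.17 and 0.057. Msmo1 and Hsd17b7 kept their sign with smaller differences of -0.14 and -0.12.

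Further genes of sterol and lipid handling, among them those of lysosomal cholesterol, were taken from a separate list. Of 40 listed genes 37 were measured, with 15 above 0 and 22 below and a median of -0.042. By limma with adjustment over all genes 0 passed in either direction, where 0.00902% of all genes were higher and 0.104% lower. At an unadjusted p under 0.05 there were 1 higher and 9 lower, against 4.5% and 5.8% of all genes. The higher count depended on WT 3, since without it there were 6 higher and 7 lower, where 9.42% and 7.05% of all genes were. Over all alternatives the counts lay between 0 and 6 higher and between 6 and 11 lower. The groups did not overlap for 10 lower genes and 0 higher, against 7.47% and 7.08% of all genes. Among genes above background, as 35 of the 37 were, these shares were 11.1% and 8.18%. Ch25h, which makes an oxysterol that restrains SREBP and is induced by interferon, had 58.0, 44.0 and 51.4 in Evi1 Tg, against 82.3, 142 and 146 in WT. The Evi1 Tg values lay below background, so the difference of -1.23 (SE 0.232, limma adjusted p = 0.148) is bounded by it.

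Npc1, which passes cholesterol out of lysosomes, had 516, 467 and 504 in Evi1 Tg, against 688, 715 and 606 in WT. All WT arrays stood above all Evi1 Tg arrays (difference -0.43, SE 0.0954, limma adjusted p = 0.195). Without WT 3 it was called lower (difference -0.50, limma adjusted p = 0.0482, the lowest of its alternatives, which reached 0.601). Erlin1, which binds cholesterol in the endoplasmic reticulum, was then called higher (0.49, limma adjusted p = 0.0476, where other alternatives reached 0.975). These were 1 lower and 1 higher of 37 genes, in a setting where 0.78% of all genes were called lower and 1.73% higher. With all arrays the Erlin1 difference was 0.23 (SE 0.207, adjusted p = 0.804 by limma) and its groups overlapped. Acss2, the cytosolic acetyl-CoA synthetase, had 97.9, 79.9 and 74.0 in Evi1 Tg, against 122, 136 and 109 in WT (difference -0.55, SE 0.135, limma adjusted p = 0.231). Stard3, a sterol carrier of late endosomes, had 293, 280 and 259 in Evi1 Tg, against 378, 360 and 313 in WT (difference -0.33, SE 0.101, limma adjusted p = 0.317). In Acss2 and Stard3 the groups separated as well, with Evi1 Tg 3 of Acss2 just below background.

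Genes named next were chosen after their values were seen. Lipa, the lysosomal acid lipase, had a difference of -0.29 and Npc2, the soluble partner of Npc1, one of -0.25, each with separate groups and not past the adjusted test. The citrate carrier Slc25a1 had -0.26, Cyp27a1, which makes another oxysterol, -0.71, and Acly, which cleaves citrate to acetyl-CoA, -0.21, all with separate groups. For Cyp27a1 the Evi1 Tg arrays had 127, 123 and 64.5, the last of them below background. Gpam, which starts triglyceride synthesis, was the 1 higher gene at an unadjusted p under 0.05 with all arrays (0.53, SE 0.177, limma adjusted p = 0.362), and its groups overlapped.

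**Figure D5:**
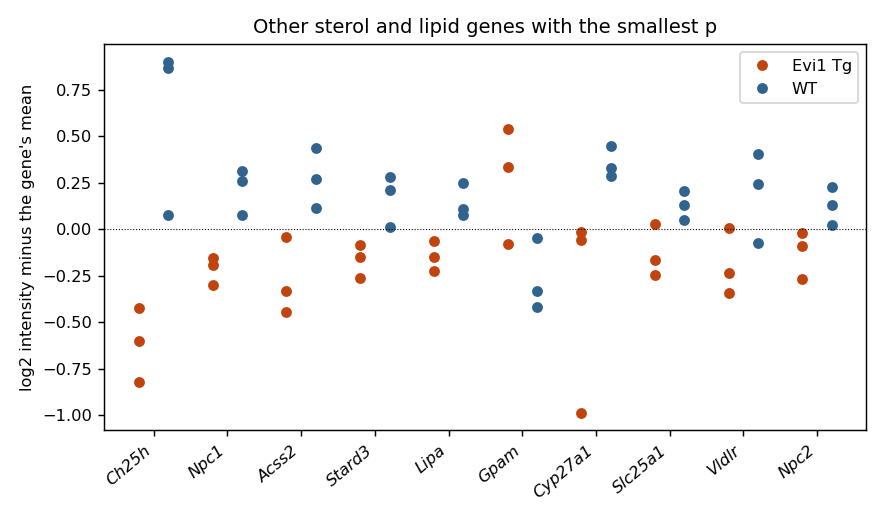
Log2 intensity minus the mean over 6 arrays for the 10 further genes with the smallest p, Evi1 Tg in orange left of WT in blue, 1 point per array. Npc1, Acss2, Stard3 and Lipa separate with the Evi1 Tg arrays below, and Gpam has 2 Evi1 Tg arrays above all WT arrays.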

How the data were processed

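Biotinylated cDNA was hybridised after labelling with GeneChip WT PLUS reagents, per the labels. The deposited intensity values, 1 column per array, are linear by their range. How the authors corrected, normalized and summarised them is not given in the labels or the file. Of 34351 probe sets, 23521 had 1 gene symbol in the platform annotation, 1814 had several and 9016 had none, and 0 symbols changed when checked through Entrez identifiers in RefSeq (GRCm38.p6). The probe set with the highest mean was used for each of 22180 genes.

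Intensities were log2 transformed with no pseudocount, and group mean intensities are means of log2 values set back to the linear scale. The 2 groups were compared with limma 3.58.1 under R 4.3.3 (lmFit, eBayes), fitted over all genes, with Benjamini-Hochberg adjustment, a threshold of 0.05 and no covariate. Differences are Evi1 Tg minus WT, with moderated standard errors (SE) and 95% intervals. Background is the 90th percentile of 64 genes of a list silent in blood. On simulated data for this comparison over 22180 genes, the procedure recovered 82% of 100 genes with a 2-fold change. It recovered 90% of 100 with a 4-fold change, and called 6 unchanged genes. These shares hold for the simulated spread only and do not give the power on the real arrays. There Mpo (difference 2.80, limma adjusted p = 0.139) and Cd34 (difference 2.53, limma adjusted p = 0.315) were not called. The members, the lists and the rule for named genes were chosen with earlier results of these data known. The rule gave per-array values to regulators, to genes with an unadjusted p under 0.05, to the gene with the highest mean of each group and to the 4 further genes with the smallest p, and other values were added afterwards. Alternatives were a pseudocount of 16, array weights, centring each array on its median, quantile normalization, trended robust eBayes, averaging the probe sets of a gene, dropping dim genes, the replicate number as a block and dropping each array.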

Additional observations from a re-analysis of the deposited data

How the results depend on the processing

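Over 14 alternatives 0 of the measured genes were called higher in Evi1 Tg by limma with Benjamini-Hochberg adjustment, with 1 to 4 of 29 higher and 1 to 4 lower at an unadjusted p under 0.05, where 2.64% to 9.42% and 3.9% to 8.37% of all genes were. The count called lower was 0 in 13 alternatives and 1 without WT 3, where Abca1 passed (difference -1.21), so leaving out 1 array in turn gave 0 to 1. The median difference was -0.059 in the main setting and -0.081 to 0.057 with 1 array left out, and the value of 0.057 was the one without WT 3. In the other 13 alternatives it lay between -0.081 and -0.013, and the smallest adjusted p of any of these genes between 0.0707 and 0.607. The sign of 16 of 29 genes turned in at least 1 alternative, and that of 13, Abca1 and Pmvk among them, in none. Over all genes, 2 were called higher and 23 lower, against 0 to 383 and 2 to 173 over the alternatives, with the highest counts without WT 3. With the replicate number as a block, 0 of the 29 genes were called in either direction and their median was -0.059, while over all genes 0 were called higher and 9 lower. Deviations from the group means correlated at 0.19, -0.18 and 0.061 between arrays of the same number, so the numbers were not taken to pair the samples. With 3 arrays per group, precision is limited, and for Abca1, Nr1h3, Acacb, Ch25h, Acss2 and Cyp27a1 also by the nearness of background.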
